A study of Homo sapiens with 4 samples.

Results

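The genes described here encode the protein quality-control machinery of the cell, namely the heat shock protein families HSPA with HSPH, HSP90 and HSPB, the J-domain proteins DNAJA, DNAJB and DNAJC, the cytosolic chaperonin CCT, the mitochondrial chaperonin pair HSPD1 and HSPE1, and the proteasome subunits PSMA, PSMB, PSMC and PSMD. They were chosen by symbol alone, as every gene with an m6A peak in either cell line whose name began with one of these prefixes, with 1 DNAJB symbol not analysed here. This gave 73 of the 7957 genes with a peak, of which 49 carried a chaperone prefix and 24 a proteasome prefix. In the A549/DDP list 68 of them had a peak, of 7031 genes, and in the A549 list 61 did, of 6453 genes. HSPBAP1, HSPBP1 and PSMC3IP share a prefix without belonging to the family it stands for: HSPBP1 is a nucleotide exchange co-chaperone of HSP70, and PSMC3IP is a factor of meiotic recombination and no proteasome subunit.

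N6-methyladenosine (m6A) was mapped by MeRIP-seq, in which RNA fragments are pulled down with an antibody against the mark and sequenced beside untreated fragments, the input. A549/DDP, the cisplatin-resistant line, was set beside A549, a cisplatin-sensitive line of human lung adenocarcinoma, and both were cultured in DMEM with serum and antibiotics and without any stated drug exposure. Each line gave 1 library from the antibody and 1 input library made without it, and the values came as 1 peak list per line. With 1 library per group there is no replicate, no test between the lines was made, and every comparison describes these libraries only. How A549/DDP was derived, and from how many clones, is not given in the sources used here.

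Chaperones bind unfolded or partly folded proteins and use ATP cycles to let them fold: J-domain proteins hand clients to HSP70, HSP90 takes over signalling proteins at a late stage, small heat shock proteins hold clients without ATP, and chaperonins enclose them in a barrel. Proteins that fail to fold are tagged with ubiquitin and degraded by the proteasome, whose core particle (20S) of alpha and beta subunits cuts peptide bonds and whose regulatory particle (19S) recognises, unfolds and feeds the substrate through a ring of ATPases. m6A in messenger RNA is typically found near the stop codon and in long internal exons, and the antibodies used for it also bind the related N6,2′-O-dimethyladenosine, which occurs at the first transcribed base of many messengers when that base is an A.

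The lists held 32069 distinct peaks for A549/DDP and 27319 for A549, of which 264 in A549/DDP and 221 in A549 lay in these genes. Once overlapping peaks were merged these formed 110 regions in A549/DDP and 92 in A549. Each peak carries the authors' fold enrichment, a linear ratio taken here as pull-down over input, and the authors' p-value, which belongs to the peak within its line and is no test between the lines. Both describe a peak within its own list. They are printed side by side for the lines, and some settings apply the same fold cut to both lists, but they measure no difference between the lines. The lists give no read counts and the depth is unknown. A gene without a peak cannot be told apart from a gene whose messenger was too scarce to give one. Among the 12 lung epithelial markers examined, KRT7, KRT8 and KRT18 had peaks in both lists and CDH1 in the A549 list alone, and the other 8 had none. Of 10 markers of blood, vessel and connective tissue cells, CD68 and COL1A1 had peaks in both lists and 8 had none.

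Most of the chaperone and proteasome genes with an m6A peak in either line carried one in both lines. Of the 73, 56 had a peak in both lists (76.7%, exact binomial 95% interval 65.4 to 85.8), where 69.5% of all genes with a peak did. Peaks in the A549/DDP list alone were found for 12 genes (16.4%, interval 8.79 to 27), against 18.9% of all genes, and peaks in the A549 list alone for 5 genes (6.85%, interval 2.26 to 15.3), against 11.6% of all genes. The intervals cover counting error only, and each of these shares has the value for all genes within its interval. Whether chaperone and proteasome symbols differ in this was not tested. All 12 genes of the A549/DDP list alone were chaperone symbols (24.5% of 49, interval 13.3 to 38.9). None of the 24 proteasome symbols was among them (0%, interval 0 to 14.2). The interval of the chaperone symbols includes the 18.9% of all genes, and that of the proteasome symbols lies below it. The overlap of these intervals does not show that the groups are alike. In the A549 list alone were 2 chaperone symbols (4.08%) and 3 proteasome symbols (12.5%). These counts depended on the threshold for a peak. Among equal numbers of the strongest peaks of each list, 7 chaperone symbols (20.6%) were in A549/DDP alone and 4 (11.8%) in A549 alone. Of the proteasome symbols, 2 (9.52%) were in A549/DDP alone and 3 (14.3%) in A549 alone. Of all genes at that setting, 16.3% were in A549/DDP alone and 18.9% in A549 alone. With peaks of a fold of at least 2 in both lists, 2 proteasome genes, PSMA4 and PSMA6, counted as A549/DDP alone, although both have a weaker peak in A549. They made up 9.09% of the proteasome symbols, against 20.4% of all genes at that fold. In A549 alone were then 4 proteasome symbols (18.2%), against 12.4% of all genes.

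**Figure D1:**
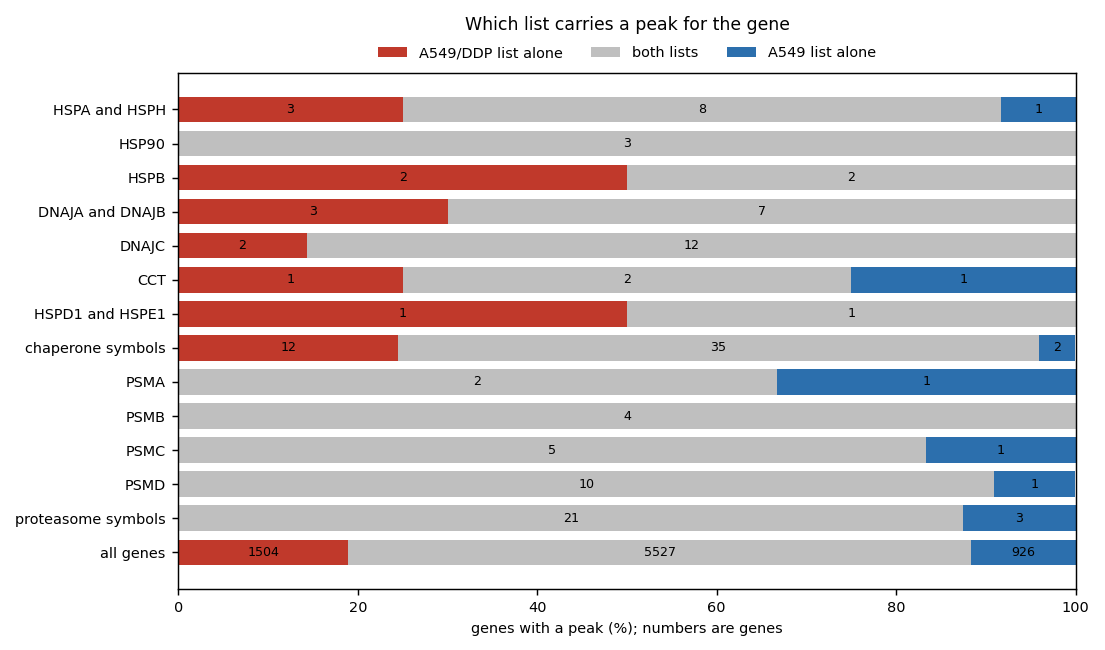
Share of genes with a peak (x axis, percent) in the A549/DDP list alone (red), in both lists (grey) and in the A549 list alone (blue), by family, for all chaperone symbols, all proteasome symbols and all genes; the numbers in the bars are genes. The red part covers 12 of 49 chaperone symbols and 0 of 24 proteasome symbols, beside 1504 of 7957 genes.

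A table of RefSeq protein-coding genes holds 122 symbols that follow the same rule, so 49 had no peak in either list. Of all 20052 RefSeq protein-coding genes, 7282 (36.3%) had a peak under their current symbol. The lists name 7957 genes, and those under any other symbol are not in this share. All 73 members matched a current symbol, so the family counts lost none in this way. All 3 HSP90 genes had a peak, as did HSPD1 and HSPE1. So did 12 of 15 HSPA and HSPH, 10 of 15 DNAJA and DNAJB, 6 of 7 PSMC and 11 of 14 PSMD symbols. The counts of 3 of 8 PSMA, 4 of 11 PSMB, 4 of 9 CCT, 4 of 9 HSPB and 14 of 29 DNAJC symbols lie nearer to that share.

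The peaks of these genes had a lower median fold and a smaller median p than all peaks of the same list. In A549/DDP their median fold was 3.03 (quartiles 1.88 and 4.69) and their median p 1.79e-14, while all peaks of that list had a median fold of 3.81 and a median p of 5.13e-08. In A549 their median fold was 2.32 (quartiles 1.85 and 4.13) and their median p 1.26e-12, while all peaks of that list had a median fold of 3.72 and a median p of 9.12e-08. Peaks with a p below the median of their list made up 64.0% in A549/DDP and 62.4% in A549, where 49.9% of all A549/DDP peaks and 50% of all A549 peaks did. For chaperone symbols the share was 53.9% (interval 46.3 to 61.3) in A549/DDP, which includes the share of all peaks, and 59% (interval 50.3 to 67.3) in A549. For proteasome symbols it was 85.7% (interval 76.4 to 92.4) in A549/DDP and 68.3% (interval 57.1 to 78.1) in A549. These intervals treat the peaks as independent, which overlapping peaks of the same gene are not. By family, the share in A549/DDP was below that of all peaks for PSMB (2 of 7 peaks), HSPD1 with HSPE1 (4 of 12), DNAJA with DNAJB (37.3%) and HSPA with HSPH (46.9%), and in A549 it was below it for HSPA with HSPH (44%). Peaks that crossed exon junctions made up 49.6% in A549/DDP and 48.0% in A549, where 33% of all A549/DDP peaks and 31.3% of all A549 peaks did.

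**Figure D2:**
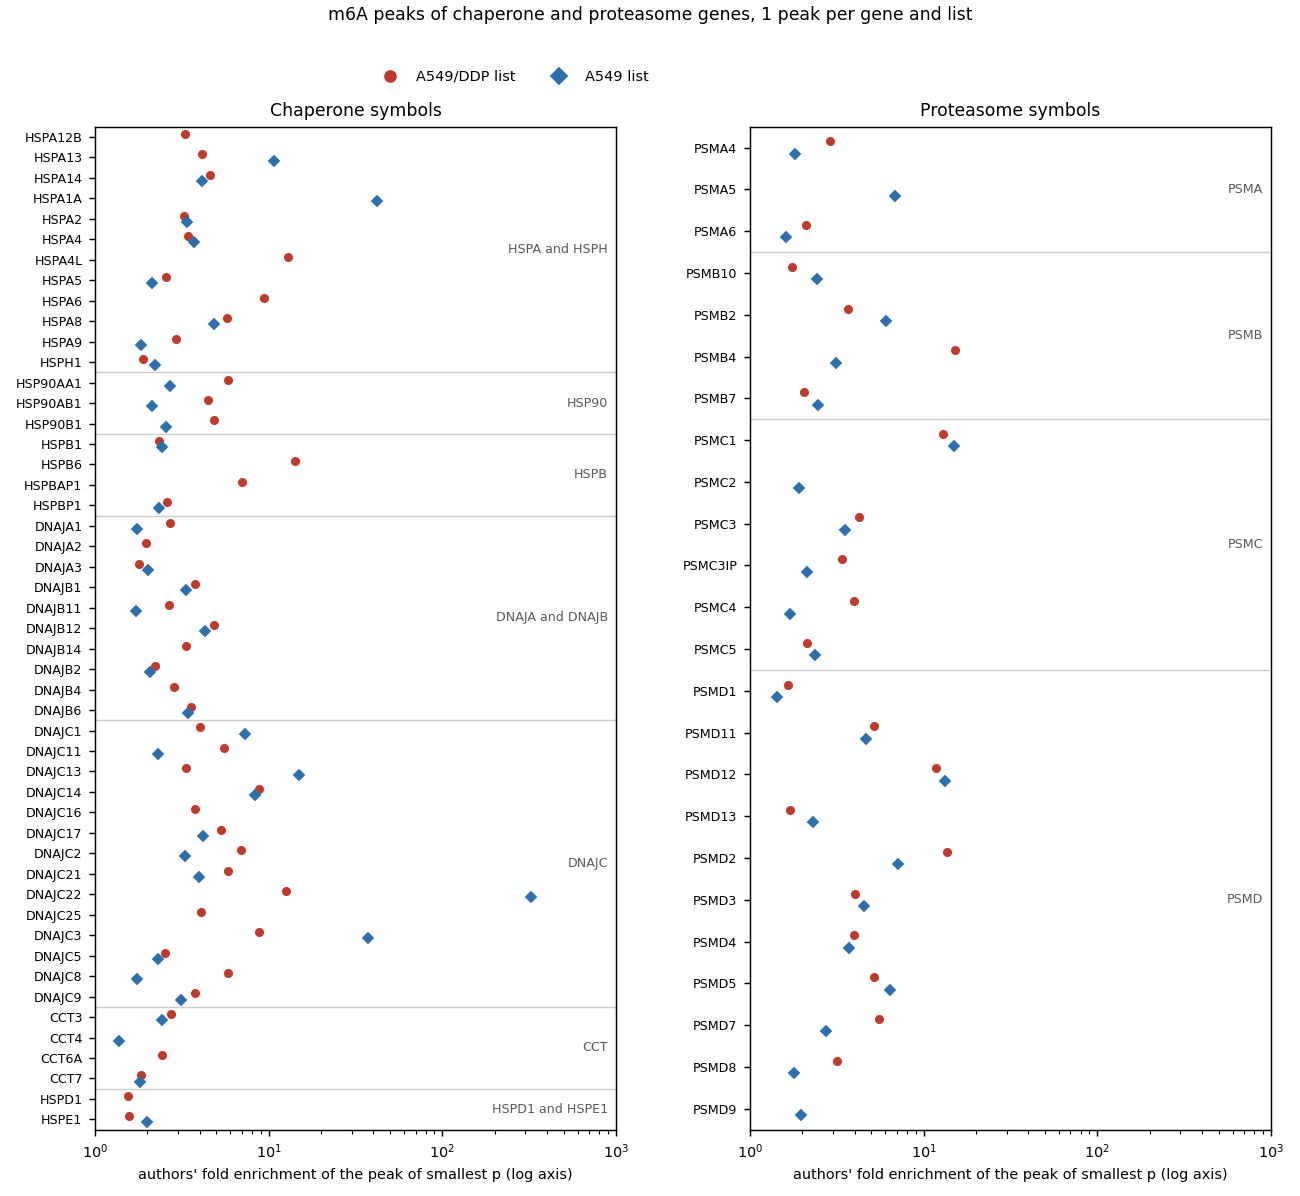
The authors' fold enrichment (x axis, log scale, a linear ratio) of the peak with the smallest p of each gene, for A549/DDP (red circles) and A549 (blue diamonds), grouped by family; a missing symbol means that the list holds no peak of that gene. Most points lie below 10, the A549 point of DNAJC22 lies at 323 and that of HSPA1A at 42.1.

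In the HSP70 family, 8 of the 12 genes with a peak in either list had peaks in both. HSPA8, the constitutive cytosolic HSP70, had 1 region over its stop codon in each line, on chromosome 11 (hg19, as all positions here, counted from 1). The peak ran over 122928197 to 122928464 with a fold of 5.74 in A549/DDP and over 122928197 to 122928494 with a fold of 4.82 in A549, and both p-values were listed as 0. HSPA5, the HSP70 of the endoplasmic reticulum, had a single peak over its stop codon at chromosome 9, 127998474 to 127999309, with a fold of 2.55 and a p of 1.26e-98 in A549/DDP. The peak in A549 began at the same base and ended 127999279, with a fold of 2.13 and a p of 1.26e-29. HSPA9, the mitochondrial HSP70, had a stop codon peak with a fold of 2.92 (p of 3.16e-89) in A549/DDP and 1.85 (p of 5.01e-23) in A549, on chromosome 5. For these 3 genes the peaks of both lines shared bases. Here and in what follows, a stop codon peak is one that the list labels with both coding sequence and 3′ UTR, and a start codon peak one labelled with both 5′ UTR and coding sequence.

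The exchange factors that recycle HSP70 differed in how far their peaks reached. HSPA4 had 1 continuous region from 132428431 to 132440253 of chromosome 5 in A549/DDP, with 1049 exonic bases, a fold of 3.45 and a p of 1e-112. In A549 the same stretch held 3 separate regions, of which the strongest covered the stop codon at 132439688 to 132440253 with a fold of 3.7 and a p of 1e-118. A further HSPA4 peak in the 3′ UTR, at 132441662 to 132442141 with a fold of 5.22 (p of 1.58e-14), was in the A549/DDP list alone. HSPH1, the HSP110 protein, had regions at its 3′ end and coding sequence in A549/DDP alone (strongest p 1.2e-08, fold 1.9), and both lines shared a weak start codon region on chromosome 13 near 31735676. HSPA4L had 1 weak 3′ UTR peak, in A549/DDP alone, at chromosome 4, 128760719 to 128760869 (fold 12.9, p of 0.00132), and this exact pair of fold and p occurs at 160 peaks of the list.

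The other HSP70 genes had fewer or weaker peaks. HSPA2 had a stop codon peak on chromosome 14 in both lines, with folds of 3.25 in A549/DDP and 3.37 in A549. HSPA14, which works on the ribosome together with DNAJC2, had a 3′ UTR peak in both, with folds of 4.62 in A549/DDP and 4.13 in A549. HSPA13 had a coding peak in both whose values recur at 22 A549/DDP and 19 A549 peaks. HSPA6, a strictly stress-induced HSP70, had a coding peak at chromosome 1, 161495879 to 161496027, in A549/DDP alone (fold 9.38, p of 0.000195, a pair found at 48 peaks). HSPA12B, a distant relative of HSP70, had 3 weak regions in A549/DDP alone, of which the best was a 3′ UTR peak at chromosome 20, 3733281 to 3733430 (fold 3.28, p of 0.000372). HSPA1A, the main inducible HSP70, was in the A549 list alone with a coding peak of fold 42.1 and a p of 1.26e-12. Its peaks lay only on alternate haplotype contigs, its copy HSPA1B is near-identical, and HSPA6 has a similar neighbouring pseudogene, so the assignment of reads to these genes is uncertain.

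All 3 HSP90 genes had peaks with very small p-values in both lists. HSP90AA1, the inducible cytosolic form, had a coding peak at chromosome 14, 102550820 to 102552101, with a fold of 5.86 in A549/DDP, and one at 102550880 to 102551715 with a fold of 2.69 in A549. The p was listed as 0 in both. Its peaks covered 1300 exonic bases in A549/DDP, against 735 in A549, and the A549/DDP region alone reached the 5′ UTR, up to 102552608. HSP90AB1, the constitutive cytosolic form, had a coding peak at chromosome 6, 44217804 to 44218833, with a fold of 4.46 and a p listed as 0 in A549/DDP. In A549 the peak ran over 44218029 to 44218326 with a fold of 2.12 and a p of 1e-139. HSP90B1, the form of the endoplasmic reticulum, had its strongest peak in the coding sequence of chromosome 12 in both lines, with folds of 4.83 (p listed as 0) in A549/DDP and 2.55 (p of 1e-130) in A549. It also had a separate region around its start codon: 104324172 to 104326693 with a fold of 19.4 and a p of 1e-190 in A549/DDP, and 104324201 to 104327796 with a fold of 4.48 and a p of 7.94e-60 in A549. Every one of the 15 A549 peaks of the HSP90 genes overlapped an A549/DDP peak, as did 15 of the 17 A549/DDP peaks an A549 peak.

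Of the small heat shock proteins, only HSPB1 had peaks in both lists. HSPB1, also called HSP27, had a stop codon peak on chromosome 7 at 75933407 to 75933612 (fold 2.34, p of 1e-174) in A549/DDP. In A549 its strongest peak ran over 75933143 to 75933612, with 352 exonic bases in 2 exon blocks, a fold of 2.42 and a p listed as 0. That peak was labelled with both UTRs. HSPB6, a muscle-enriched small heat shock protein, had 1 weak 3′ UTR region in A549/DDP alone, with its best peak at chromosome 19, 36245916 to 36246005 (fold 14.1, p of 0.000661), with a pair of values found at 157 peaks. The co-chaperone gene HSPBP1 had a 3′ UTR peak in both lines with folds of 2.61 in A549/DDP and 2.35 in A549. HSPBAP1 had a coding peak at chromosome 3, 122459264 to 122459501, in A549/DDP alone (fold 7.04, p of 8.51e-09).

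The J-domain proteins of classes A and B were listed in both lines for 7 of the 10 genes with a peak. DNAJB1, the heat-inducible HSP40, had 13 peaks in 3 regions in each line, and its stop codon peak had the same position in both, chromosome 19, 14626491 to 14626850, with folds of 3.75 (p of 3.16e-58) in A549/DDP and 3.35 (p of 6.31e-43) in A549. DNAJB12, a J-protein of the endoplasmic reticulum membrane, had folds of 4.82 in A549/DDP and 4.28 in A549 at its 3′ end. DNAJB6, which keeps polyglutamine proteins soluble, had at its stop codon a fold of 3.55 (p of 1e-14) in A549/DDP and 3.17 (p of 4.47e-05) in A549, and its smallest p in A549 lay at a coding peak (fold 3.42, p of 3.31e-05). DNAJB11, a co-chaperone of HSPA5, had peaks over 621 exonic bases across 6 exon blocks in A549/DDP (strongest p 7.94e-23, fold 2.65) and over 64 bases of the 3′ UTR in A549 (p of 5.62e-05, fold 1.72). DNAJA1 had its strongest peak in the coding sequence in A549/DDP (fold 2.71, p of 6.31e-67) and over the stop codon in A549 (fold 1.75, p of 5.01e-22). DNAJA2, DNAJB4 and DNAJB14 were in the A549/DDP list alone, each with weak coding peaks. The strongest of DNAJA2 lay at chromosome 16, 46998530 to 47001443 (fold 1.96, p of 1.74e-05), that of DNAJB4 at chromosome 1, 78479014 to 78479223 (fold 2.83, p of 0.000117), and that of DNAJB14 at chromosome 4, 100822192 to 100822252 (fold 3.35, p of 0.00282, a pair found at 17 peaks). DNAJA3, a mitochondrial J-protein, and DNAJB2 had 3′ end peaks in both lists, with smallest p-values of 1.02e-05 and 1.32e-06 in A549/DDP and 3.63e-08 and 1.38e-08 in A549.

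The DNAJC genes, J-proteins of varied cellular tasks, held the highest folds. DNAJC22 had a region over its stop codon on chromosome 12 in both lines. Its strongest peak in A549/DDP was at 49745190 to 49745697 with a fold of 12.5 (p of 2.51e-34), and in A549 at 49745180 to 49745928 with a fold of 323 (p of 1e-164). The highest DNAJC22 fold, 370 in A549 (p of 1e-115), ranked 2 in that list when genes were ordered by their highest fold at a p below the list median. The highest in A549/DDP, 18.4 (p of 3.98e-33), ranked 400 in its own list. DNAJC3, an inhibitor of the kinases PERK and PKR, had a 3′ UTR peak from 96445748 of chromosome 13, with a fold of 8.8 (p of 0.000141) in A549/DDP and 37.2 (p of 3.98e-11) in A549. DNAJC14 had a coding peak near 56221326 of the same chromosome as DNAJC22, with folds of 8.75 (p of 1.58e-61) in A549/DDP and 8.37 (p of 2.51e-27) in A549. Positions again overlapped between the lines for all 3 of these genes.

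DNAJC2, the ribosome-bound partner of HSPA14, and DNAJC21, which acts in the maturation of the large ribosomal subunit, had long coding peaks in both lines. For DNAJC2 the folds were 6.94 (p of 7.94e-76) in A549/DDP and 3.3 (p of 3.16e-27) in A549, and for DNAJC21 5.8 (p of 1.26e-78) in A549/DDP and 3.95 (p of 6.31e-18) in A549. DNAJC21 also had the highest fold of these genes in A549/DDP, 30.5 at a start codon peak from 34929848 of chromosome 5 (p of 2.45e-08, a pair found at 17 peaks), where A549 had a fold of 10.7 (p of 0.00219). DNAJC8, a splicing-associated J-protein, had 859 covered bases from the 5′ to the 3′ UTR in A549/DDP (fold 5.86, p of 5.01e-46) and 219 bases toward the 3′ end in A549 (fold 1.74, p of 6.03e-06). DNAJC1, a membrane J-protein of the endoplasmic reticulum, was the opposite in extent, with 569 covered bases in A549/DDP (fold 4.04, p of 1.58e-12) and 772 in A549 (fold 7.29, p of 1.58e-36). DNAJC9, a histone chaperone, had 1 stop codon peak from 75003057 of chromosome 10 in each line, with folds of 3.75 in A549/DDP and 3.13 in A549. DNAJC17 had 1 coding peak in each, with folds of 5.32 in A549/DDP and 4.18 in A549. DNAJC5, the cysteine string protein of secretory vesicles, was listed in both lines but with no common base: its 3 regions in A549/DDP included a start codon region with a fold of 11.1 (p of 1.15e-08), and its single A549 peak lay elsewhere in the 3′ UTR (fold 2.31, p of 8.32e-06). DNAJC25 had 2 regions in A549/DDP alone, the stronger in the coding sequence at chromosome 9, 114411785 to 114411993 (fold 4.07, p of 6.03e-09). DNAJC16 had 1 weak 3′ UTR peak in A549/DDP alone, at chromosome 1, 15894671 to 15894850 (fold 3.78, p of 0.000135, a pair found at 18 peaks).

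HSPD1, the mitochondrial chaperonin, had the smallest p of the 17 genes listed in one line alone. It had 10 peaks in 7 regions in A549/DDP and none in A549. The strongest lay in the coding sequence at chromosome 2, 198353112 to 198353861, with a fold of 1.55 and a p of 2.51e-34, and 7 peaks touched the 5′ UTR, with the highest fold of 4.16 (p of 3.72e-06) at 198364532 to 198364591. Of 1461 genes with a p at least as small in A549/DDP, 22 (1.51%) lacked a peak in A549. HSPE1, its lid, lies next to it on the opposite strand and had a 3′ end region in both lines, 198367973 to 198368151 with a fold of 1.56 (p of 1e-19) in A549/DDP and 198368003 to 198368181 with a fold of 2 (p of 7.94e-32) in A549. HSPD1 has processed pseudogenes, and no source used here says how reads that match several places were treated.

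The chaperonin CCT, which folds actin and tubulin, had peaks at the 3′ end only, except for CCT7. CCT6A had a 3′ UTR peak at chromosome 7, 56131294 to 56131592, with a fold of 2.43 and a p of 2e-29, in A549/DDP alone, and 27 of the 1670 genes at least as strong there (1.62%) lacked a peak in A549. CCT4 had 1 weak 3′ UTR peak in A549 alone, at chromosome 2, 62095524 to 62095614, with a fold of 1.38 and a p of 0.00012. CCT3 had a region at chromosome 1, 156278759 to 156278968, with a fold of 2.73 (p of 7.94e-73) in A549/DDP, and 156278760 to 156278998 with a fold of 2.44 (p of 3.98e-44) in A549. CCT7 had a 3′ end region in both lines (folds of 1.84 in A549/DDP and 1.82 in A549) and a region in the 5′ UTR, from 73461454 of chromosome 2, in A549/DDP alone (fold 2.82, p of 1.51e-07).

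Among the core particle genes of the proteasome, all 4 listed PSMB genes and 2 of 3 listed PSMA genes had peaks in both lists. PSMA4 had 1 region across its last exons on chromosome 15, with a fold of 2.88 and a p of 1e-155 in A549/DDP and a fold of 1.81 and a p of 3.98e-53 in A549. PSMA6 had the same 3′ UTR peak in both, chromosome 14, 35786611 to 35786699, with folds of 2.09 in A549/DDP and 1.61 in A549. PSMA5 had a 3′ UTR peak in A549 alone, at chromosome 1, 109944449 to 109944538 (fold 6.88, p of 0.000105, a pair found at 25 peaks). PSMB4 had the highest fold of the core particle, 15.2 (p of 1e-101), at chromosome 1, 151372039 to 151372526, a peak that ran past the start codon in A549/DDP. In A549 its peak at 151372068 to 151372496 had a fold of 3.11 (p of 6.31e-22) and was labelled coding. The labels differ although the edges of both peaks lie close together. PSMB7, which carries the trypsin-like site, had a stop codon peak from 127115745 of chromosome 9 in both, with folds of 2.05 in A549/DDP and 2.45 in A549. PSMB10, its counterpart in the immunoproteasome, had folds of 1.74 in A549/DDP and 2.43 in A549 at its stop codon, and PSMB2 folds of 3.68 in A549/DDP and 6.06 in A549 in its 3′ UTR.

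The ATPase ring of the regulatory particle, encoded by the PSMC genes, carried 5′ end peaks in 3 of the 5 ATPase genes with a peak. PSMC1 had 1 region across its first exons on chromosome 14, 90722899 to 90730191 with a fold of 12.9 (p of 5.01e-88) in A549/DDP and 90722922 to 90730158 with a fold of 14.9 (p of 2.51e-19) in A549. PSMC3 had 1 region near its start on chromosome 11 in both, with folds of 4.26 (p of 6.31e-77) in A549/DDP and 3.53 (p of 2e-40) in A549, and 2 further regions in A549 alone. PSMC4 had a start codon region, chromosome 19 from 40477089, with a fold of 3.99 (p of 1.29e-10) in A549/DDP and from 40477107 with a fold of 2.05 (p of 2e-15) in A549, and a 3′ end region in both. PSMC5 had 2 regions in both lines, the strongest over the stop codon with folds of 2.12 (p of 1.26e-37) in A549/DDP and 2.36 (p of 7.94e-36) in A549. PSMC2 had 1 weak 3′ UTR peak in A549 alone, at chromosome 7, 103008615 to 103008675 (fold 1.91, p of 0.000372). PSMC3IP, the recombination factor, had its strongest peak with a fold of 3.37 (p of 5.01e-17) in A549/DDP and 2.13 (p of 1.82e-05) in A549. All 29 A549/DDP peaks with a PSMC symbol overlapped an A549 peak, and 28 of the 34 A549 peaks an A549/DDP peak.

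The PSMD genes encode the remaining subunits of the regulatory particle and some of its assembly chaperones. Of the 11 with a peak in either list, 10 were listed in both lines. PSMD7, the partner of the deubiquitinase subunit, had a stop codon peak at chromosome 16, 74339441 to 74339828, with a fold of 5.54 and a p of 1e-246 in A549/DDP, and at 74339471 to 74339769 with a fold of 2.73 and a p of 2e-78 in A549. PSMD4, a ubiquitin receptor, had the identical peak in both, chromosome 1, 151239715 to 151239955, with folds of 3.95 (p of 1e-147) in A549/DDP and 3.73 (p of 1e-125) in A549. PSMD2 and PSMD3, scaffold subunits, had start codon peaks in both. For PSMD2 the folds were 13.7 (p of 2.51e-69) in A549/DDP and 7.16 (p of 2.51e-29) in A549, on chromosome 3, and for PSMD3 4.01 (p of 1e-86) in A549/DDP and 4.55 (p of 5.01e-59) in A549, on chromosome 17. PSMD11 had a 3′ UTR region in both with folds of 5.15 in A549/DDP and 4.63 in A549, and PSMD5, an assembly chaperone, an identical 3′ UTR peak with folds of 5.16 in A549/DDP and 6.4 in A549.

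PSMD12 was the proteasome gene whose peaks shared no base between the lists. It had a start codon peak at chromosome 17, 65362533 to 65362743, with a fold of 11.7 and a p of 1.78e-08 in A549/DDP. In A549 it had a 3′ UTR peak at 65336216 to 65336305 with a fold of 13.2 and a p of 0.00055, a pair of values that occurs at 159 peaks of that list. PSMD1 had its strongest peak in the coding sequence in A549/DDP (fold 1.66, p of 3.16e-24), with no A549 peak over it, and a weak 3′ UTR region in both. PSMD8 had 2 regions at its 3′ end in both lines and a 3rd in A549 alone, and PSMD13 a 3′ end region with folds of 1.69 (p of 1.58e-13) in A549/DDP and 2.31 (p of 3.16e-35) in A549. PSMD9, an assembly chaperone, had a coding region in A549 alone, with its best peak at chromosome 12, 122337622 to 122353829 (fold 1.98, p of 4.17e-08).

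The 17 genes listed in one line alone had weak peaks as a rule. Their median smallest p was 0.000126 for the 12 in A549/DDP alone and 0.000105 for the 5 in A549 alone, while for all genes it was 4.07e-05 in A549/DDP alone and 6.68e-05 in A549 alone. The 56 genes listed in both had a median smallest p of 7.55e-34 in A549/DDP and 9.98e-24 in A549. Peaks stronger than the median of the list were found in 4 of the 12 genes, HSPD1, CCT6A, DNAJC25 and HSPBAP1, and in 2 of the 5, HSPA1A and PSMD9. Over all genes listed in one line alone they were found in 308 of 1504 in A549/DDP and 204 of 926 in A549. For 6 of the 17 genes the strongest peak had a pair of fold and p that 10 or more peaks of the list share. Counted over all peaks instead of genes, 5146 of 32069 in A549/DDP and 4199 of 27319 in A549 had such a pair.

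**Figure D3:**
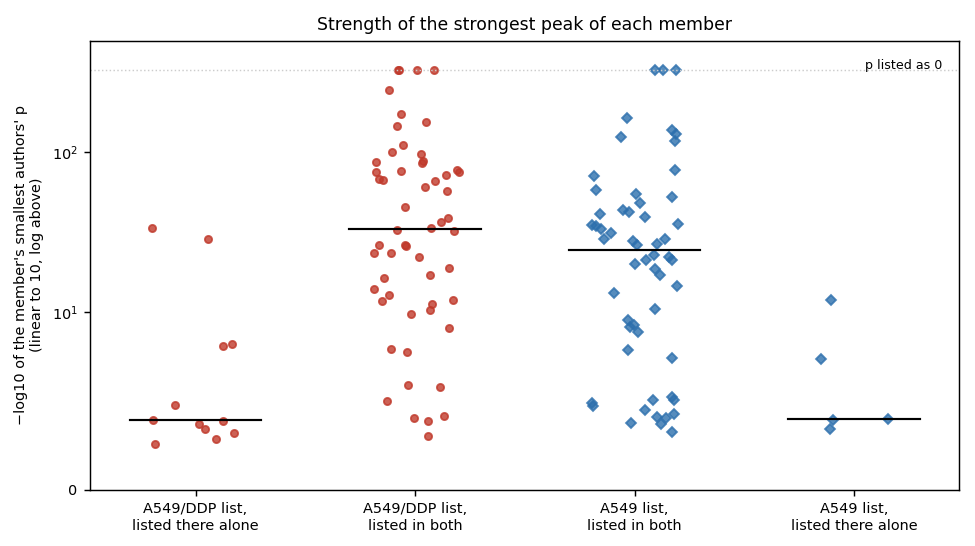
Strength of the strongest peak of each gene, as −log10 of the authors' p (y axis, linear to 10 and logarithmic above; p listed as 0 is drawn on the dotted line), for genes listed in A549/DDP alone, genes listed in both (A549/DDP and A549 values) and genes listed in A549 alone; points are genes, shifted sideways at random, and black lines are medians. In A549/DDP alone, HSPD1 (2.51e-34) and CCT6A (2e-29) stand above the other 10 genes.

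Where both lists held peaks of a gene, the peaks mostly lay on the same bases. At least 1 region coincided in 54 of the 56 genes (96.4%), where it did in 95.5% of all genes listed in both, and the exceptions were DNAJC5 and PSMD12. Counted by peak, 73.5% of A549/DDP peaks (interval 67.7 to 78.7) shared at least 1 exonic base with an A549 peak, against 67.2% of all peaks. Of the A549 peaks, 84.2% (interval 78.7 to 88.7) shared a base with an A549/DDP peak, against 78% of all peaks. In A549/DDP the share was 66.1% for chaperone and 89.3% for proteasome symbols, and in A549 it was 86.3% for chaperone and 80.5% for proteasome symbols. Peaks of a gene can overlap one another, so they are not independent, although the intervals treat them as such. Over merged regions, 66.4% were shared in A549/DDP (interval 56.7 to 75.1), against 63.8% of all regions. In A549 80.4% were shared (interval 70.9 to 88), against 74.3% of all regions. Peaks with identical edges and blocks in both lists were found in 7 genes (12.5%), DNAJB1, HSP90B1, PSMA6, PSMC3, PSMD4, PSMD5 and PSMD13, where 17.3% of all genes listed in both had one.

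The length of transcript under peaks was greater in A549/DDP for 31 genes, greater in A549 for 21 and equal for 4. The 31 are 55.4% of the genes listed in both, where 56.7% of all such genes had more bases covered in A549/DDP. The median length was 446 bases in A549/DDP, against 340 in A549, and the median ratio of A549/DDP to A549 was 1.08, beside 1.09 over all genes. By ratio, the widest gaps toward A549/DDP were those of DNAJB11, DNAJC5, PSMD1, DNAJC8 and HSPH1. The widest ratio toward A549 was that of DNAJB2 (93 bases in A549/DDP, against 245 in A549), followed by HSPBP1 (181 in A549/DDP and 360 in A549), PSMD8, DNAJA3 and HSPB1. Counted in bases, the widest gap toward A549/DDP was that of HSPA4, with 1529 in A549/DDP and 691 in A549, and the widest toward A549 that of PSMD8, with 334 in A549/DDP and 663 in A549.

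**Figure D4:**
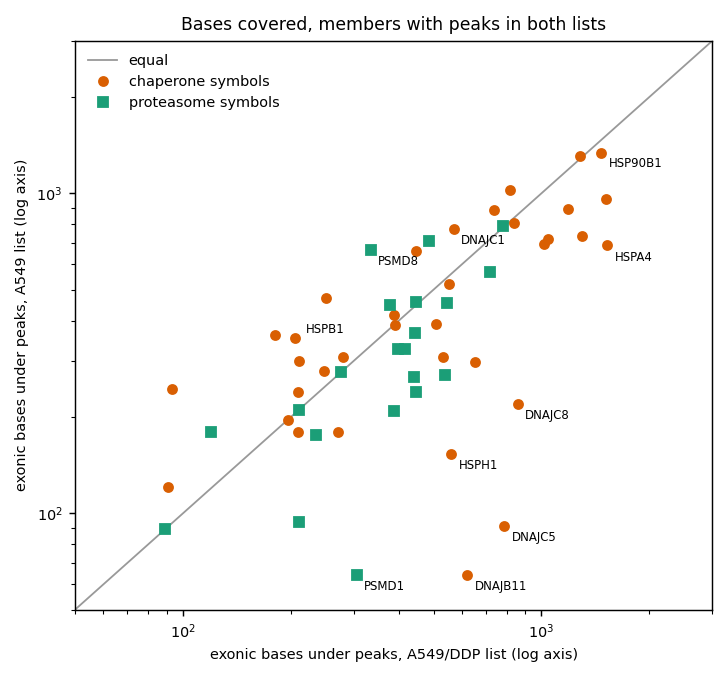
Exonic bases under peaks in A549/DDP (x axis, log scale) and in A549 (y axis, log scale) for the 56 genes listed in both; circles are chaperone symbols, squares proteasome symbols, and the line marks equality. Of the 56 points, 31 lie below the line and 21 above it.

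By the region labels of the lists, the 3′ UTR was touched by 51.1% of A549/DDP and 53.4% of A549 peaks, where 50.4% of all A549/DDP peaks and 56% of all A549 peaks touched it. The coding sequence was touched by 67.0% of A549/DDP and 75.6% of A549 peaks, where 65.2% of all A549/DDP peaks and 64.5% of all A549 peaks did. The 5′ UTR was touched by 18.2% of A549/DDP peaks (interval 13.7 to 23.4), against 13.6% of all peaks, and by 12.2% of A549 peaks (interval 8.21 to 17.3), against 8.42% of all peaks. Several of these peaks overlap one another in the same gene, so that they are not independent, and DNAJB1 alone gave 10 of the 5′ UTR peaks in each line and HSPD1 7 in A549/DDP.

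**Figure D5:**
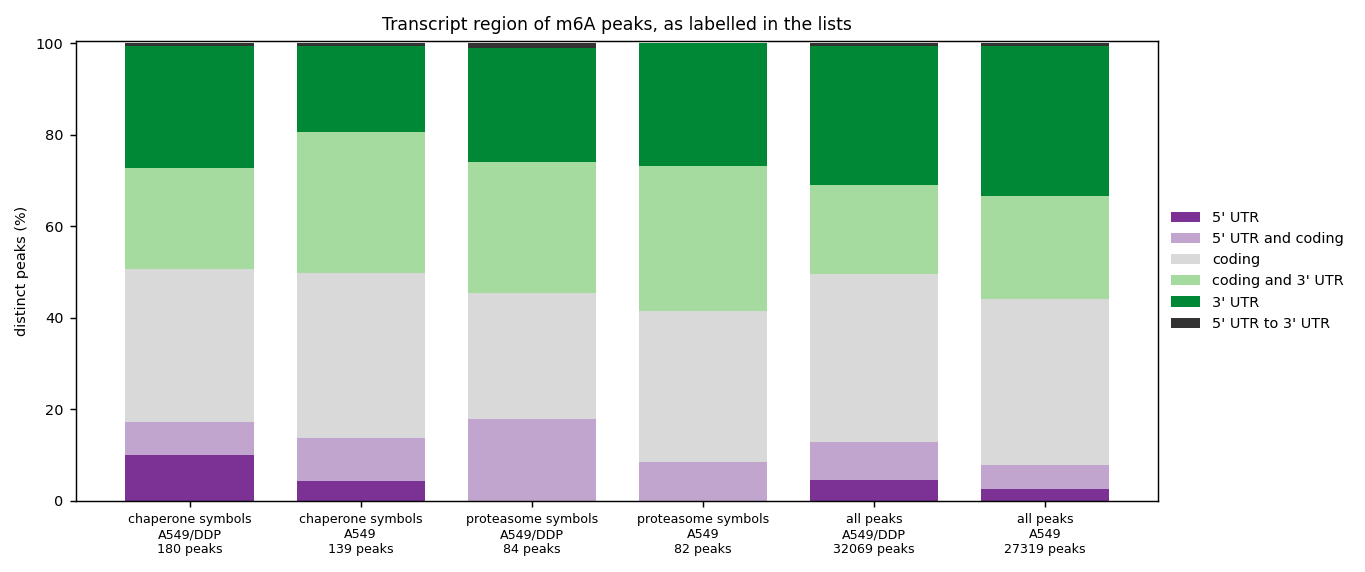
Share of distinct peaks (y axis, percent) by the transcript region the lists give, for chaperone symbols, proteasome symbols and all peaks in A549/DDP and A549; each bar sums to 100, and the number of peaks stands under it. Among proteasome peaks no bar part stands for the 5′ UTR alone, and those that touch it also reach the coding sequence.

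Counted by gene, 10 of the 56 genes had a 5′ UTR peak in both lines, 9 in A549/DDP alone and 3 in A549 alone, where of all 5527 genes listed in both 14.4% had one in both lines, 10.8% in A549/DDP alone and 2.03% in A549 alone. The 10 were DNAJB1, DNAJC13, DNAJC21, HSP90B1, HSPH1, PSMC1, PSMC3, PSMC4, PSMD2 and PSMD3. The 9 were CCT7, DNAJA1, DNAJC5, DNAJC8, DNAJC11, HSP90AA1, PSMB4, PSMC3IP and PSMD12, and for 6 of them, DNAJA1, DNAJC8, DNAJC11, HSP90AA1, PSMB4 and PSMC3IP, the peak shared bases with an A549 peak that the list does not label as 5′ UTR. For CCT7, DNAJC5 and PSMD12 no A549 peak touched it. The 3 were HSPB1, whose peak is labelled with both UTRs, and DNAJC14 and DNAJC22 with weak peaks (p of 0.000316 and 0.000525), whose values recur at 140 and 21 peaks of the list. DNAJC11, a mitochondrial J-protein, had its 5′ UTR peak in A549/DDP with a fold of 5.18 (p of 6.31e-17). DNAJC13, an endosomal J-protein, had its only peak of either list in the 5′ UTR from 132136490 of chromosome 3, with a p of 0.000955 in A549/DDP and 0.000182 in A549.

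The strongest peak of the gene touched the 5′ UTR in 8 of the 68 genes of the A549/DDP list (11.8%), where it did in 11% of all genes of the list. In the A549 list it did in 6 of 61 (9.84%), where it did in 6.83% of all genes. Among proteasome symbols it did in 6 of 21 (28.6%) in A549/DDP, namely PSMB4, PSMC1, PSMC4, PSMD2, PSMD3 and PSMD12. In A549 it did in 3 of 24 proteasome symbols (12.5%), PSMC1, PSMD2 and PSMD3. For chaperone symbols the counts were 2 of 47 (4.26%) in A549/DDP and 3 of 37 (8.11%) in A549. No interval was computed for these shares, and whether the groups differ was not tested.

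Anti-m6A antibodies are known to bind a methylated first transcribed base as well, which was not tested here. The start of the genes with 5′ UTR peaks is given here as RefSeq has it for GRCh38.p14, for the 6 proteasome genes above, for PSMC3, and for HSP90AA1, HSP90B1, DNAJB1 and HSPD1, whose 5′ UTR peaks are described above or belong to the largest groups of such peaks. Each sequence runs 5′ to 3′ on the strand of the gene, with 10 bases before the annotated start and 20 from it, and the capital marks the first transcribed base.
PSMB4: cattttttctGctaccgtgactaagatgga
PSMC1: gggccgcagtGgtggaggaacttccggcag
PSMC3: tcggagaggcAgattcgctgctccgcagca
PSMC4: aagcggtgacAgatcatcccaggccacaca
PSMD2: gggtgcgcgcGcagcgggccggcagtggcg
PSMD3: ggcgtttcccAgaaggcccagcgccgggaa
PSMD12: aacttccggtGtgggtgacgagtggtggcc
HSP90AA1: tttacggcccGactgcgcaggcgtgctcac
HSP90B1: cttgcggtgtAgtgggcggaccgcgcggct
DNAJB1: cggggtaagaAgttgagtgacaggcaaggc
HSPD1: gagggcggtcGccccgacgcgcaccgcgat

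The annotated first base was an A in 10 of 22 genes with a 5′ UTR peak in either line and a start sequence (45.5%), and in 18 of 44 without such a peak (40.9%). Over all genes with a peak it was an A in 45.4% of 6014, and over 15842 protein-coding genes in 50.7%. Of the sequences shown, the start base is an A for PSMC3, PSMC4, PSMD3, HSP90B1 and DNAJB1 and a G for the others. An annotated start need not be the start used in these cells, and the sequence under the peaks was not used here, since the positions of the lists are on another build.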

How the data were processed

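MeRIP-seq libraries of A549/DDP and A549, 1 from the antibody and 1 input each, were analysed as 1 deposited peak list per line (4 libraries, 2 lists). The submitters' processing notes name the aligner HISAT2 and the build hg19. No caller or threshold for the peaks is named in the sources used here, nor whether each list was made from the 2 libraries of its line, as was taken here. Per the file headers, the authors gave each peak a position, exon blocks, a gene name, region labels, a fold enrichment and a p-value. The fold is a linear ratio and the p-value was deposited without stating an adjustment (highest 0.00676 in A549/DDP and 0.00646 in A549). Block numbers and transcript lengths were deposited too and are no measurements. Starts were read as counted from 0.

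Rows with equal position, strand and blocks (33465 and 28601 rows) were counted as 1 peak. A peak took the region labels of all its rows together, which can belong to different transcripts. A peak was shared if it had 1 exonic base or more in common with a same-strand peak of the other list. A strong peak has a p below the median of its list. Intervals are exact binomial (Clopper-Pearson) at 95%, from scipy 1.17.1 under Python 3.11.15 with pandas 2.3.3 and numpy 2.4.6. The overlap code was tested on simulated data. No peak of these genes overlapped a peak of another symbol on the same strand. All 73 symbols matched a current RefSeq symbol, and 66 had a start sequence.

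All members could be named. Those in one line alone, up to 4 per family with the highest fold at a strong peak, those with 5′ UTR peaks in one line alone and the 5 with the smallest p per list were described in most detail. Members, lists and settings were chosen with earlier results of these data known. The alternatives were an overlap of 50% of bases, whole spans in place of exon blocks, strand ignored, prefix-only symbols left out, folds of at least 2 or 5, the 13659 strongest peaks of each list, strong peaks only, merged regions, and chromosomes 1 to 22, X and Y.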

Additional observations from a re-analysis of the deposited data

How the results depend on the processing

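Of 86 alternative values, 57 stayed within the counting interval, or within 1.5 times for counts of genes, and 29 did not; the cause was not tested. Genes in the A549 list alone numbered 8 with folds of at least 2 and 8 with folds of at least 5, against 5. Over all genes they numbered 956 and 1014 at those folds, against 926. Genes in both fell to 10 of 56 at a fold of at least 5, where over all genes they fell to 2459 of 5527. The shares of peaks that follow are given for the chaperone and proteasome genes only. The share of A549/DDP peaks with a partner was 66.3% with 50% of bases required, 65.8% and 31.1% at folds of at least 2 and 5, and 66.4% over merged regions, against 73.5%, and that of A549 peaks was 41.2% at a fold of at least 5, against 84.2%. The share of A549/DDP peaks touching the 5′ UTR was 13% among the 13659 strongest peaks, 24.6% and 26.2% at folds of at least 2 and 5, against 18.2%, and in A549 17.5% and 23.5% at those folds, against 12.2%. For the 3′ UTR it was 42.6% at a fold of at least 5 and 59.1% over merged regions in A549/DDP, against 51.1%, and in A549 44.1% at that fold and 63% over merged regions, among the strongest peaks and for p below the median, against 53.4%. The counts of chaperone and of proteasome symbols were recounted after the data had been seen. Chaperone symbols in A549/DDP alone numbered 7 among the strongest peaks, against 12, and in A549 alone 1 on chromosomes 1 to 22, X and Y, 4 among the strongest peaks, at folds of at least 2 and for p below the median, and 6 at folds of at least 5, against 2. Proteasome symbols in A549/DDP alone numbered 2 among the strongest peaks and at folds of at least 2, and 3 at folds of at least 5 and for p below the median, against 0. Of all genes, 16.3% were in A549/DDP alone among the strongest peaks, against 18.9%. At folds of at least 2 and 5 it was 20.4% and 31%, and for p below the median 21.5%. The shares in A549 alone were 18.9%, 12.4%, 20.2% and 13.4% in the same order, against 11.6%. In lists reduced by strength, a gene in one line alone can have a weaker peak in the other. No paired analysis was possible because each group had 1 library and the labels give no replicate numbers. The depth is unknown, and no setting equalises it.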

Other observations

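Partner genes of these machines, taken from lists chosen with earlier results known, were mostly listed in both lines. Of 48 co-chaperone and folding-enzyme symbols 34 had a peak, 31 of them in both lists (91.2%), beside 69.5% of all genes with a peak. In the A549/DDP list alone was HSBP1, which binds the heat shock factor, with a fold of 1.81 (p of 1.91e-06) at its stop codon. In the A549 list alone were PFDN5, a prefoldin subunit (fold 1.48, p of 2.51e-13), and TRAP1, the mitochondrial HSP90 (fold 2.33, p of 2.51e-14), both over the stop codon. CALR, a lectin chaperone of the endoplasmic reticulum, had a stop codon peak with a p listed as 0 in both lists, with folds of 7.06 in A549/DDP and 4.6 in A549. CDC37, which loads kinases onto HSP90, had a start-side peak on chromosome 19 with folds of 3.76 (p of 1e-266) in A549/DDP and 3.79 (p of 1e-130) in A549.

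Of 38 proteasome partner symbols 26 had a peak, 22 of them in both lists (84.6%). UBQLN1, a shuttle for ubiquitinated proteins (fold 6.4, p of 5.01e-13), and UCHL5, a deubiquitinase of the regulatory particle (fold 16.4, p of 9.77e-05), were in the A549/DDP list alone, both with start-side peaks. PSMG3, an assembly chaperone (fold 2.14, p of 1.26e-11), and USP14, a deubiquitinase of the regulatory particle (fold 1.99, p of 0.000204), were in the A549 list alone, both with 3′ UTR peaks. NFE2L1, the transcription factor that induces proteasome subunit genes, had 40 peaks in A549/DDP and 33 in A549, and its strongest peaks, over the stop codon with p listed as 0, had folds of 19 in A549/DDP and 9.56 in A549. VCP, the ATPase that extracts ubiquitinated proteins, had a stop codon peak from 35056749 of chromosome 9 with a fold of 4.03 (p listed as 0) in A549/DDP, and from 35056779 with a fold of 3.88 (p of 1e-301) in A549.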
